A study of Danio rerio with 57 samples.

Results

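The genes described here encode the embryonic and larval globins of zebrafish, the protein chains of hemoglobin that are made before the adult chains. They were chosen as 9 symbols, hbae1.1, hbae1.3, hbae3, hbae5, hbbe1.1, hbbe1.2, hbbe1.3, hbbe2 and hbbe3, matched to the Ensembl identifiers of the count table. A row was found for 5 of the 9 symbols, out of 32520 genes in the table, and all 5 were among the 24246 genes tested: hbae1.1 (ENSDARG00000089475), hbae1.3 (ENSDARG00000089124), hbae3 (ENSDARG00000079305), hbae5 (ENSDARG00000045142) and hbbe3 (ENSDARG00000038147). No row carried the symbols hbbe1.1, hbbe1.2, hbbe1.3 or hbbe2, which were not analysed here under those names. The set was proposed because of hbbe3. It was the only gene called in embryos exposed to 50 nM rotenone and sampled at 96 h post fertilization (hpf). The values of that contrast are therefore given below as a description without a test. Other tests that use the control pools of that contrast are not independent of the choice.

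Whole-body RNA was sequenced from pools of 20 wild-type zebrafish embryos (OBI/WIK), kept at 26 °C and exposed to sorafenib, a kinase inhibitor used against cancer, to rotenone, an inhibitor of mitochondrial complex I, or to the solvent DMSO alone. In the late scenario the exposure began at 24 hpf, the compounds were given at 1.3 or 2.4 µM sorafenib or at 25 or 50 nM rotenone, and pools were taken at 36, 48 and 96 hpf, with 3 libraries in each group and 2 in the DMSO group of 48 hpf. In the early scenario the exposure began within the first hours of development, with DMSO (3 libraries), 2.4 µM sorafenib (4 libraries) or 25 nM rotenone (4 libraries), and pools were taken at 96 hpf. All groups shared the strain, the temperature and the solvent, every group is a set of pools and not of single embryos, and 55 of 57 libraries in 18 groups were used.

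Hemoglobin carries oxygen inside red blood cells and is built from pairs of alpha and beta chains, each of which holds a heme group. Vertebrates make one set of chains in the first wave of red cells and replace it by others as development goes on, which is known as globin switching. In zebrafish, genes named hba encode alpha chains and genes named hbb encode beta chains, the letter e marks the embryonic or larval copies and the letter a the adult ones, and alpha and beta genes lie side by side. In the RefSeq annotation of the GRCz12tu assembly, which is not the GRCz11 build used for the counts, hbae4, hbbe3, hbbe2 and hbae5 formed a cluster of 4 adjacent protein-coding genes on chromosome 12. On chromosome 3 a cluster of 13 adjacent protein-coding genes held hbae1.1, hbae1.3 and hbae3 together with hbbe1.1, hbbe1.2, hbbe1.3 and hbae1.2.

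Another 7 rows of the table carried the symbol HBE1, the name of a human embryonic beta globin, and could not be assigned to single zebrafish genes. Of these, 4 passed the filter on low counts (ENSDARG00000045143, ENSDARG00000087390, ENSDARG00000113599 and ENSDARG00000115405) and are given beside the members by their identifiers. Reads that mapped to several places had been removed before counting. Levels of globin copies that are close to identical may thus be too low, and the split between such copies is uncertain. The sequences of the copies were not compared here. Levels are CPM (counts relative to the scaled library total) and are not divided by transcript length, so a level is compared between samples and not between genes. In pools of whole embryos, fewer red cells and less globin RNA per red cell cannot be told apart.

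Total counts ran from 20609990 to 86897183 per library. Libraries T16 (2.4 µM sorafenib, 36 hpf), T37 (50 nM rotenone, 36 hpf) and T49 (25 nM rotenone, 48 hpf) stood apart: their scaling factors of 0.676, 0.657 and 0.798 lay below those of all others used (0.896 to 1.15), and they held the highest globin levels of their groups. The sources used here give no reason for this. Where a call below rests on one of them, values without it are given beside it. Counts at an unadjusted p are not always given without them. The p-values measure the spread between pools, estimated for each gene over all 18 groups and not over the compared groups alone. Spread in other groups, such as that from T16, T37 and T49, therefore enters the error of each comparison.

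In DMSO pools hbbe3, a beta chain, was nearly lost between 48 and 96 hpf, while the alpha chain hbae3 fell by less. This is not a contrast of beta with alpha chains in general. The 4 tested HBE1 rows, named after a beta globin, were at 15.2 CPM or more in late DMSO pools of 96 hpf. The late DMSO pools held 862, 780 and 761 CPM of hbbe3 at 36 hpf, 734 and 750 CPM at 48 hpf, and 0.844, 0.283 and 0.289 CPM at 96 hpf, where its counts were 43, 15 and 15. The ages 36 and 48 hpf were alike in hbbe3 and the 96 hpf pools lay far below both. From 48 to 96 hpf hbbe3 fell by 10.62 ± 0.78 on the log2 scale (SE), a 1572-fold lower level (edgeR quasi-likelihood test, adjusted p = 7.292e-16). The 96 hpf pools are the controls of the contrast that selected hbbe3, so this test is not independent of that choice. Without T76, the DMSO pool with 43 counts, the change was -11.33 (adjusted p = 2.048e-13). From 36 to 48 hpf the difference was -0.11 (adjusted p = 0.9051).

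The alpha chain hbae3 stood at 1152, 1003 and 965 CPM in the DMSO pools of 36 hpf, at 2393 and 2627 CPM at 48 hpf, and at 561, 513 and 479 CPM at 96 hpf. Its highest level was thus at 48 hpf and the 3 ages did not overlap. It rose by 1.27 ± 0.32 on the log2 scale to 48 hpf (adjusted p = 0.001549) and fell by 2.28 ± 0.32 to 96 hpf (adjusted p = 5.854e-08, edgeR). The alpha chain hbae1.3 had the same order of ages, with 128, 90.6 and 111 CPM, then 298 and 349 CPM, then 25.3, 23.9 and 23.1 CPM. It rose by 1.56 ± 0.40 (adjusted p = 0.001967) and then fell by 3.75 ± 0.42 (adjusted p = 2.527e-10, edgeR).

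Another alpha chain, hbae1.1, held 254, 237 and 204 CPM at 36 hpf, 337 and 378 CPM at 48 hpf and 35.8, 35.6 and 31.1 CPM at 96 hpf. Its 48 hpf pools lay above those of 36 hpf, but the difference of 0.62 did not pass the test (adjusted p = 0.1715), while the fall by 3.39 ± 0.36 to 96 hpf did (adjusted p = 6.403e-11, edgeR). In the chromosome 12 cluster hbbe2 lies between hbbe3 and the alpha chain hbae5. The level of hbae4, which is next to hbbe3 there, is not given here. For hbae5 the pools held 8.33, 9.1 and 9.3 CPM, then 5.46 and 5.47 CPM, then 1.37, 0.849 and 0.866 CPM. This gene lay lower at each later age without overlap. Its difference of -0.70 from 36 to 48 hpf missed the threshold (adjusted p = 0.05202), and it fell by 2.41 ± 0.30 from 48 to 96 hpf (adjusted p = 3.966e-09, edgeR). With DESeq2 the earlier difference of hbae5 was called (adjusted p = 0.04702), as it was with the omitted DMSO library of 48 hpf added back (-0.88, adjusted p = 0.005689).

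Between 36 and 48 hpf 2 of the 5 members rose and none fell, where 33.8% of all genes were called and 21.1% were called higher. Between 48 and 96 hpf all 5 fell, where 58.6% of all genes were called and 26.3% were called lower. The median log2 fold change of the members from 48 to 96 hpf was -3.39, beside 0.08 over all genes tested. In the first step all 4 HBE1 rows rose, by 1.15 to 1.51 on the log2 scale. In the second, 3 of the 4 fell by 2.41 to 2.93, and ENSDARG00000045143 did not pass the test (-0.51, adjusted p = 0.1554).

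**Figure D1:**
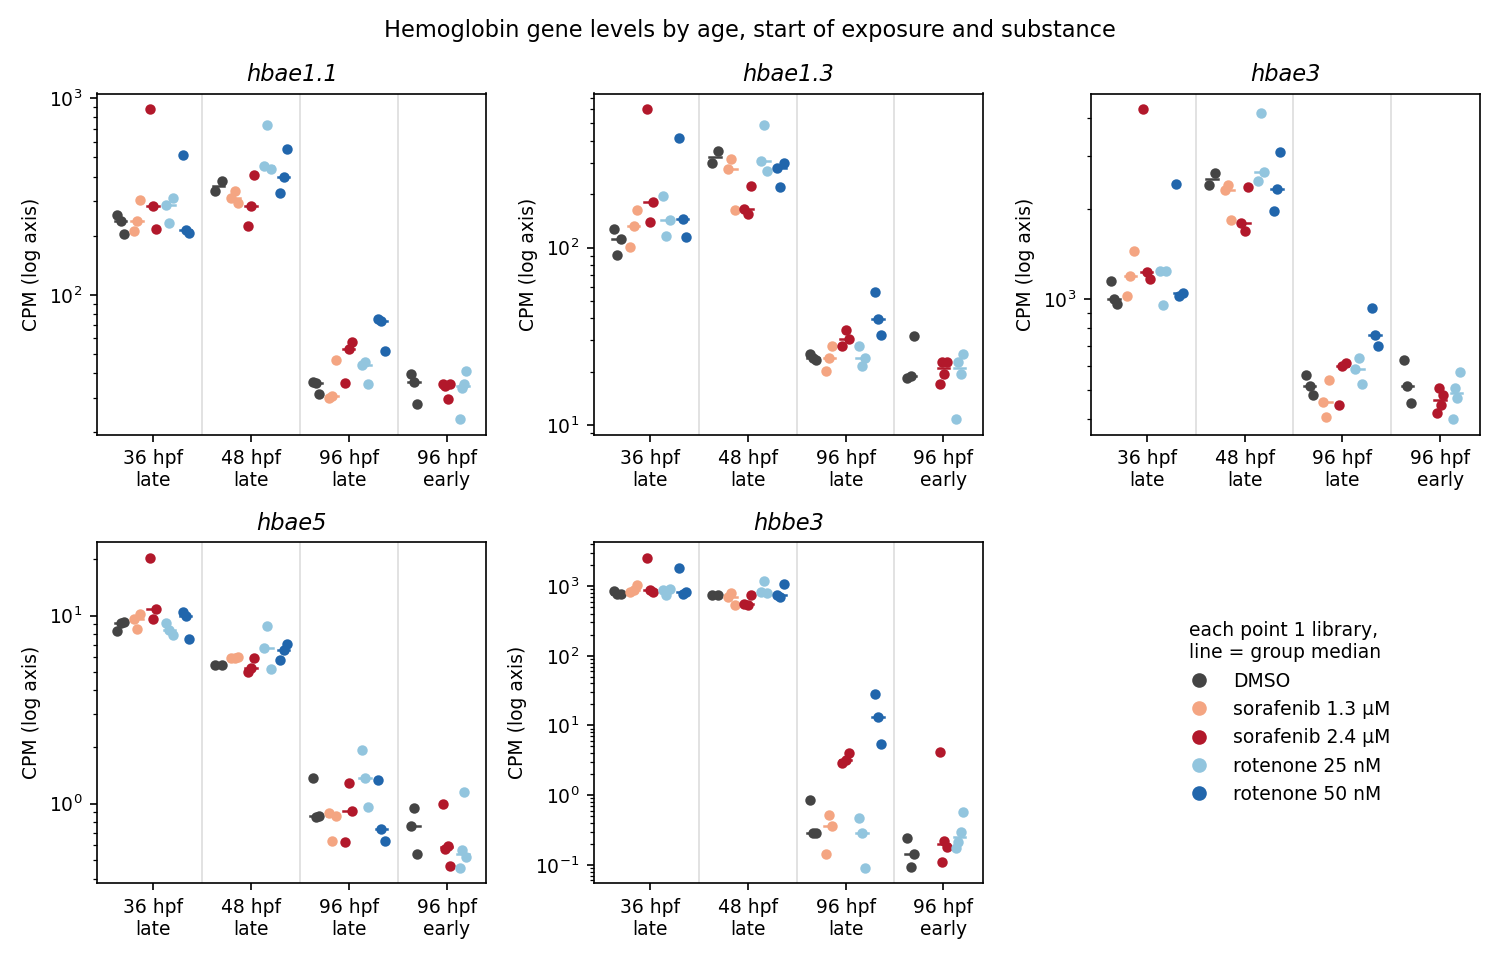
Level of the 5 globin genes in each library, in CPM on a log axis, with libraries grouped by age, compound and start of exposure, where each point is 1 library. The hbbe3 points drop from 734 CPM or more in DMSO pools of 36 and 48 hpf to 0.844 CPM or less at 96 hpf, while hbae3 stays at 451 CPM or more in every DMSO pool.

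The make-up of the summed RNA of the 5 members changed with age. Of the summed CPM of the 5 members, hbbe3 made up 35.84 to 37.12% in DMSO pools of 36 hpf, 18.25 to 19.49% at 48 hpf and 0.04931 to 0.1352% at 96 hpf in the late scenario. The share of hbae3 went the other way, from 47.06 to 47.92% at 36 hpf, through 63.51 to 63.92% at 48 hpf, to 89.44 to 89.86% at 96 hpf. These shares leave out the 4 beta chains that had no row under their own symbol and hbae1.2. They also leave out the HBE1 rows, which could not be assigned to those beta chains. The HBE1 row ENSDARG00000087390 alone held 804 to 919 CPM at 48 hpf and 94.3 to 125 CPM at 96 hpf in late DMSO. The percentages are thus shares of the 5 members and not of all globin RNA. Since CPM ignores transcript length, only their change with age is read. The adult alpha chain hbaa1 was measured at 0.359 CPM or less in every library and hbaa2 at 0.162 CPM or less.

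Genes that accompany globins in red cells also moved with age in DMSO. From 48 to 96 hpf, where 32.3% of all genes were called higher and 26.3% lower, 8 of 12 genes of heme synthesis and iron supply fell and 1 rose. Among them alas2, which makes the first intermediate of heme in red cells, fell by 2.47 on the log2 scale, and slc25a37, the mitochondrial iron carrier mitoferrin, fell by 2.95. Of 17 regulators of red cell formation 12 fell and 3 rose. Among them gata1a, the transcription factor that drives the red cell program, fell by 3.21, and klf1, an activator of globin genes, fell by 2.48. Of 7 genes of the red cell membrane and metabolism 4 fell, cahz (carbonic anhydrase) by 1.27 among them, and 2 rose, including rhag, an ammonium channel of the membrane, by 0.79. Of 6 other globins 3 rose and 2 fell: neuroglobin (ngb) rose by 3.01, cytoglobin 2 (cygb2) by 2.96 and myoglobin (mb) by 1.5, and the embryonic alpha chain hbae1.2 fell by 3.63, from 92.3 to 135 CPM at 48 hpf to 7.62 to 11.4 CPM at 96 hpf. The earlier step from 36 to 48 hpf had 21.1% of all genes called higher and 12.7% called lower, with 2 of the 12 heme genes higher and 5 lower, 5 of the 7 membrane genes higher and none lower, 4 of the 17 regulators higher and 6 lower, and 3 of the 6 other globins higher. Gata1a, for example, had already fallen by 1.39 when hbae3 rose.

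At 36 hpf 2 members were called higher with 2.4 µM sorafenib, and both calls rested on library T16. In that group hbae3 was 4296, 1234 and 1164 CPM and hbae1.3 was 603, 179 and 140 CPM, the first value of each being T16. The other pools of the group also lay above the DMSO range of both genes, by far less. The log2 fold changes were 1.48 ± 0.37 for hbae1.3 (adjusted p = 0.02419) and 1.1 ± 0.29 for hbae3 (adjusted p = 0.03522, edgeR), against 2.23% of all genes called and 1.7% called higher. Without T16 they were 0.54 (adjusted p = 0.4638) and 0.21 (adjusted p = 0.7405), and no member was called.

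The other members had the same high library at 36 hpf. For hbbe3 the 2.4 µM pools held 2567, 872 and 829 CPM (log2 fold change 0.83, adjusted p = 0.3484), for hbae1.1 they held 882, 283 and 215 CPM (0.99, adjusted p = 0.08189), and for hbae5 20.4, 10.8 and 9.57 CPM (0.60, adjusted p = 0.1749). None of these passed the edgeR test. The HBE1 rows ENSDARG00000045143 (1.01, adjusted p = 0.04608) and ENSDARG00000087390 (1.08, adjusted p = 0.04596) were called with T16, and without it their differences were 0.06 and 0.16. Of the genes beside the globins, tfr1a, the transferrin receptor through which red cell precursors take up iron, rose by 1.44 (adjusted p = 0.02058) and by 1.89 without T16 (adjusted p = 0.0001512). T16 itself was the lowest pool of its group for tfr1a, at 6.96 CPM beside 34.6 and 44.6 CPM. The tfr1a call was lost without T20 (0.97, adjusted p = 0.07038), without any 1 of the 3 DMSO pools (adjusted p = 0.07834 to 0.1002), with library totals in place of TMM (adjusted p = 0.06336) and in a fit of these groups alone (adjusted p = 0.9099). The membrane channel rhag rose by 0.46 (adjusted p = 0.000449), and this call was lost with library totals (0.30, adjusted p = 0.1556) and in the fit of these groups alone (adjusted p = 0.9099). No gene of the regulators or of the other globins was called. Summed markers of red cells (alas2, gata1a and cahz) were 218 to 306 CPM in these pools, T16 included, with a median of 226 CPM. They were 200 to 224 CPM in DMSO pools, and their part in the globin values was not tested. A further marker, slc4a1a, had no row under that symbol.

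The remaining groups of 36 hpf had no member called by edgeR or DESeq2. With 1.3 µM sorafenib hbbe3 was 812, 874 and 1023 CPM and hbae3 1026, 1195 and 1443 CPM, with 0 members at an unadjusted p under 0.05 and 0.0454% of all genes called. With 25 nM rotenone hbbe3 was 891, 732 and 902 CPM and hbae3 1240, 960 and 1241 CPM, with 0 members under that level and 0.0866% of genes called. With 50 nM rotenone hbbe3 was 1818, 781 and 811 CPM and hbae3 2416, 1022 and 1045 CPM, with 1 member under that level and 0.396% of genes called. The high values of this last group, 1818 and 2416 CPM, both came from T37, and the other pools lay within or close to the DMSO range. Its 1 member under an unadjusted p of 0.05 was hbae1.3, at 414 CPM in T37 beside 146 and 115 CPM. Over all genes tested, 3622 of 24246 were under that p.

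At 48 hpf the treated pools kept hbbe3 near the DMSO level of 734 and 750 CPM. They held 689, 795 and 536 CPM with 1.3 µM sorafenib, 558, 529 and 736 CPM with 2.4 µM sorafenib, 817, 1200 and 798 CPM with 25 nM rotenone, and 754, 703 and 1060 CPM with 50 nM rotenone. Both sorafenib groups and the group of 50 nM rotenone overlapped with DMSO in hbbe3, and the 25 nM pools lay above it, with T49 highest. No member was called by edgeR or DESeq2 in any of the 4 comparisons, where 0.181%, 0.404%, 0% and 0.0866% of all genes were called. Only the comparison of 2.4 µM sorafenib had a member at an unadjusted p under 0.05, in number 1, beside 1213 of 24246 genes tested. This member was hbae1.3, at 165, 154 and 223 CPM beside 298 and 349 CPM in DMSO (edgeR log2 fold change -0.84, adjusted p = 0.9565). Its treated pools lay below both DMSO pools. When only these groups entered the fit it was called (adjusted p = 0.01149).

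At 96 hpf 2.4 µM sorafenib in the late scenario left more hbbe3 than DMSO, and the other members were not called. The treated pools held 2.88, 3.19 and 3.98 CPM (138, 169 and 195 counts) beside 0.844, 0.283 and 0.289 CPM in DMSO (43, 15 and 15 counts), with no overlap. The log2 fold change was 2.83 ± 0.70 (edgeR, adjusted p = 0.002425), against 19.9% of all genes called and 7.11% called higher. The DMSO pools are those of the contrast that selected hbbe3, so neither this test nor the alternative fits are independent of that choice. The call held in each of the alternative fits run, with changes of 2.56 to 3.54 when 1 library at a time was left out and adjusted p-values up to 0.0219, and 3.54 was the change without the DMSO pool T76. The treated level was still far below the 529 CPM or more of the same compound at 48 hpf.

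The alpha chains gave a different picture at that age and dose. The 2.4 µM pools held 445, 602 and 614 CPM of hbae3 (0.10, adjusted p = 0.8646), 35.7, 53.2 and 57.5 CPM of hbae1.1 (0.51, adjusted p = 0.2855), 27.7, 34.3 and 30.4 CPM of hbae1.3 (0.35, adjusted p = 0.5673) and 0.626, 1.28 and 0.92 CPM of hbae5 (-0.12, adjusted p = 0.844). The pools of hbae1.3 all lay above DMSO, those of hbae1.1 only just touched it (35.7 beside 35.8 CPM), and those of hbae3 and hbae5 overlapped with it. In a fit of these groups alone hbae1.1 (0.59, adjusted p = 0.0277) and hbae1.3 (0.43, adjusted p = 0.01088) were called as well, which makes 3 members in place of 1. Of the HBE1 rows none was called in the fit of all groups, at -0.44 to 0.11 on the log2 scale, with 0 under an unadjusted p of 0.05 and 0 called by DESeq2. The fit of these groups alone called ENSDARG00000045143 lower (-0.36, adjusted p = 0.01238), with 38.1 to 43.1 CPM beside 51.5 to 60.3 CPM in DMSO and no overlap.

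Red cell genes moved in both directions beside hbbe3 in the 2.4 µM pools of 96 hpf, where 7.11% of all genes were called higher and 12.8% lower. Of 17 regulators 5 rose and 2 fell. Among the risers gata1a was higher by 1.43 on the log2 scale (adjusted p = 2.531e-05, edgeR). Its levels were low, at 1.02 to 1.49 CPM beside 0.34 to 0.616 CPM in DMSO. The 2 that fell were tal1 (-0.48, adjusted p = 0.0001882) and lmo2 (-0.53, adjusted p = 0.002065, edgeR). Of 12 genes of heme synthesis and iron supply 1 rose, slc25a37 (by 1.40), and 2 fell, cpox (-0.45) and alad (-0.28). Of 6 other globins 2 fell, ngb and cygb2, neither of them a red cell gene, and of 7 membrane genes none was called (1 at an unadjusted p under 0.05, 1 by DESeq2). An unadjusted p under 0.05 was reached by 7497 of 24246 genes here. Summed markers of red cells were 71.7 to 98.5 CPM beside 83.9 to 92.7 CPM in DMSO. Markers of white blood cells were 58.1 to 73.3 CPM beside 41.9 to 44 CPM and those of endothelium 145 to 165 CPM beside 199 to 202 CPM, with 4 of 8 white cell genes higher, lcp1 among them, and 3 of 7 endothelial genes lower. At 36 hpf, where 0.532% of all genes were called lower, 3 of the 7 endothelial genes were lower with this dose, including the vascular growth factor receptor flt1, and none of 8 white cell genes was called (3 at an unadjusted p under 0.05, 0 by DESeq2). The part of these cells in the hbbe3 difference was not tested.

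Both sorafenib doses can be set side by side at matched ages. At 96 hpf 1.3 µM pools held 0.144, 0.526 and 0.367 CPM of hbbe3 (6, 29 and 17 counts), within the DMSO range apart from the lowest, with 0 members called by edgeR or DESeq2, 0 at an unadjusted p under 0.05 and 0.0206% of all genes called. Between 2.4 and 1.3 µM hbbe3 differed by 3.21 ± 0.74 on the log2 scale (edgeR, adjusted p = 0.001548), without overlap, where 16.3% of all genes were called, and no other member was called. At 36 hpf no member was called between the doses (4 at an unadjusted p under 0.05, 0 by DESeq2, 0.705% of genes called), and the pools of the higher dose included T16. Over all genes tested, 3875 of 24246 had an unadjusted p under 0.05 in that comparison. Without T16 the differences of hbae1.3, hbae3 and hbae1.1 between the doses went from 1.22, 0.87 and 0.87 to 0.28, -0.03 and -0.01. The HBE1 row ENSDARG00000045143, which DESeq2 called (1.07, adjusted p = 0.02789), went from 1.01 to 0.06 in edgeR. At 48 hpf none was called either (0 at an unadjusted p under 0.05, 0 by DESeq2, 0.00412% of genes called).

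The highest hbbe3 levels of 96 hpf were in the pools of 50 nM rotenone, whose contrast with DMSO selected the gene. They held 28.7, 13.1 and 5.44 CPM (1749, 766 and 293 counts), all above the 0.844 CPM of the highest DMSO pool and spread widely among themselves. The fitted log2 fold change was 5.06 ± 0.67 and lay between 4.30, without T87, and 5.77, without the DMSO pool T76, in the alternative fits. In this contrast 0.00412% of all genes were called, which is hbbe3 alone. The next gene in the order of that contrast, which lay outside the threshold, was VAX2 (ENSDARG00000058702) with a log2 fold change of 3.28.

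The chromosome 3 members lay higher in the same pools by a smaller step. With 50 nM rotenone the pools held 75.6, 73.8 and 51.6 CPM of hbae1.1, 56.3, 39.5 and 32.1 CPM of hbae1.3 and 934, 760 and 698 CPM of hbae3, with fitted log2 differences of 0.97, 0.82 and 0.62. For these 3 genes every treated pool lay above every DMSO pool. The share of all genes with such a separation, here and below, was not counted. All these genes were measured in the same pools, and the contrast is the one that selected hbbe3. The separation is therefore a description and no result about these genes. In the chromosome 12 cluster of hbbe3, hbae5 was 1.33, 0.737 and 0.631 CPM and overlapped with DMSO (-0.18). All 4 HBE1 rows lay above DMSO in every pool, with differences of 0.21 to 0.78, and so did hbae1.2, at 13.8 to 18.9 CPM beside 7.62 to 11.4 CPM. The summed CPM of the 5 members was 787.9 to 1096 in these pools, and the DMSO median was 573.8.

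Lists of other red cell genes had medians near DMSO with 50 nM rotenone at 96 hpf. The median log2 difference was -0.0011 over the 12 genes of heme synthesis and iron supply, 0.04 over the 7 membrane genes and 0.01 over the 17 regulators. The 5 globins ran from -0.18 (hbae5) through 0.62 (hbae3), 0.82 (hbae1.3) and 0.97 (hbae1.1) to 5.06 (hbbe3). This contrast selected hbbe3, so the comparison is a description. Summed red cell markers were 95.6 to 108 CPM beside 83.9 to 92.7 CPM in DMSO, without overlap, and their part in the globin values was not tested.

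**Figure D2:**
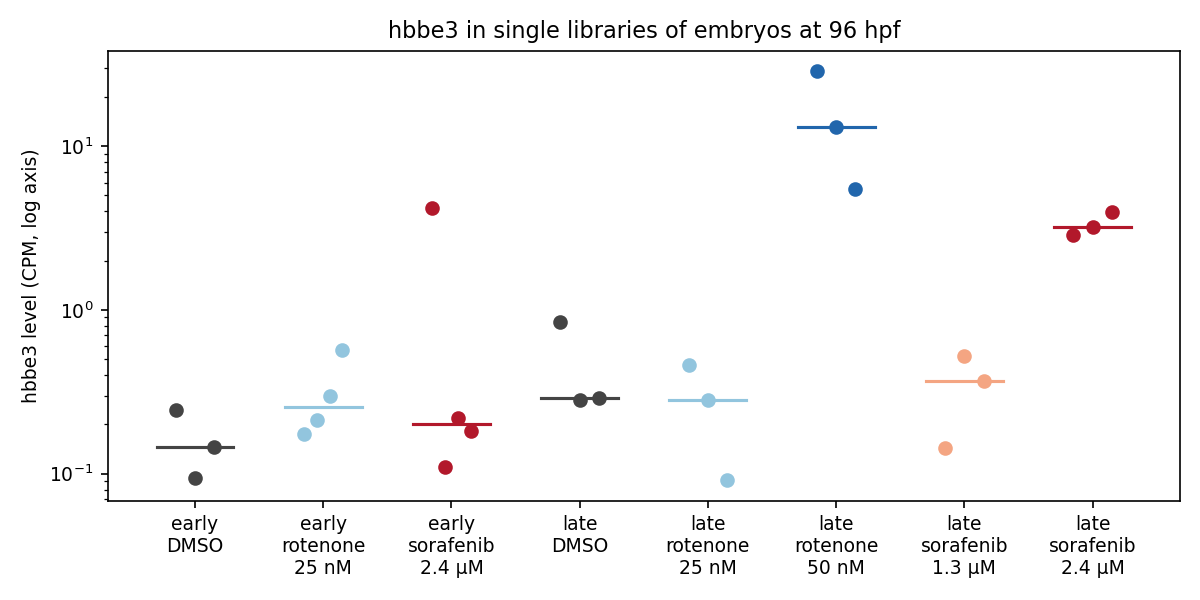
Level of hbbe3 in each library of 96 hpf, in CPM on a log axis, by group, where each point is 1 library. The 3 pools of 50 nM rotenone (5.44 to 28.7 CPM) and the 3 of 2.4 µM sorafenib of the late scenario (2.88 to 3.98 CPM) lie above all DMSO pools (0.0945 to 0.844 CPM), and 1 of the 4 early sorafenib pools (4.18 CPM) does too.

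At the lower rotenone dose hbbe3 stayed at DMSO levels. At 96 hpf 25 nM rotenone pools held 0.464, 0.283 and 0.0913 CPM of hbbe3 (19, 16 and 4 counts) and overlapped with DMSO, with 0% of all genes called and 0 members called by edgeR or DESeq2 or at an unadjusted p under 0.05. The comparison of 50 with 25 nM at 96 hpf shares the selecting pools and is a description: hbbe3 differed by 5.82 on the log2 scale, where 0.0701% of all genes were called. At 36 hpf (5.61% of genes called) and at 48 hpf (2.67%) no member was called between the rotenone doses by edgeR or DESeq2, and 0 had an unadjusted p under 0.05.

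Embryos exposed from the first hours had low hbbe3 at 96 hpf in every group, with 1 pool as an exception. DMSO pools of the early scenario held 0.0945, 0.145 and 0.244 CPM (3, 14 and 9 counts) and 25 nM rotenone pools 0.212, 0.298, 0.568 and 0.176 CPM (18, 7, 25 and 5 counts). With 2.4 µM sorafenib the values were 4.18, 0.11, 0.22 and 0.183 CPM (180, 4, 7 and 9 counts), so 1 library, T1, lay far above and the other 3 within the DMSO range. The fitted difference of 2.92 for sorafenib was not called (adjusted p = 0.9999, edgeR) and was 0.10 without T1. In the other members T1 was the highest pool of its group for hbae1.1 (35.2 CPM) and hbae5 (0.999 CPM) and the lowest for hbae1.3 (17.0 CPM) and hbae3 (418 CPM).

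No member was called in the early scenario by edgeR or DESeq2, where 0.0289% of all genes were called with sorafenib and 0% with rotenone. An unadjusted p under 0.05 was reached by 1 member with sorafenib and by 0 with rotenone, beside 785 and 306 of 24246 genes tested. The levels of hbae3 were 516, 451 and 630 CPM in DMSO, 418, 508, 446 and 480 CPM with sorafenib and 508, 471, 571 and 399 CPM with rotenone, and the groups overlapped. Between DMSO pools of the early and late scenarios no member was called (0 by edgeR or DESeq2, 0 at an unadjusted p under 0.05, 0.458% of genes called), with hbbe3 at -1.55 (adjusted p = 0.8372). The late pools are the controls of the contrast that selected hbbe3.

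**Figure D3:**
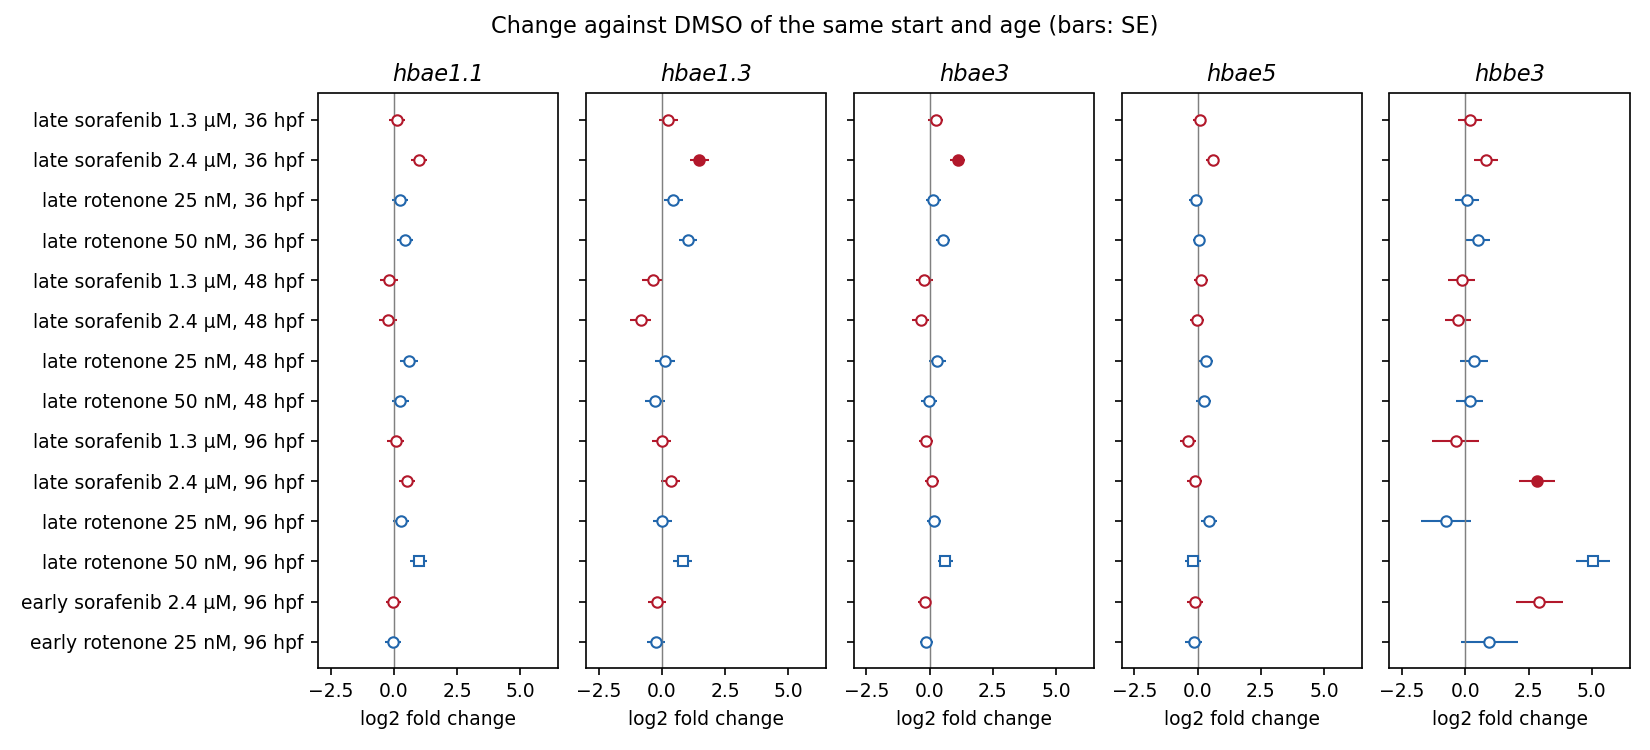
Log2 fold change of each of the 5 members against DMSO of the same age and start in the 14 treated groups, with bars for ±1 SE. Filled symbols passed the edgeR test at an adjusted p of 0.05 and squares mark the contrast that selected hbbe3. The symbols of hbbe3 at 96 hpf stand highest, at 5.06 with 50 nM rotenone, at 2.92 with early 2.4 µM sorafenib, which was not called and rests on T1, and at 2.83 with late 2.4 µM sorafenib.

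The differences between ages and between starts were tested as interactions. The sorafenib effect at 2.4 µM at 96 hpf minus that at 36 hpf was 2.00 for hbbe3 (adjusted p = 0.1186) and was not called. Without T16 it was 2.74 (adjusted p = 0.02176), and without T16, T37 and T49 it was 2.88 (adjusted p = 0.006308). These values also use the DMSO pools of 96 hpf from the contrast that selected hbbe3. In this comparison 0 of 5 members were called by edgeR and by DESeq2 (3 at an unadjusted p under 0.05), and 12.5% of all genes were. An unadjusted p under 0.05 was reached by 6644 of the 24246 genes tested. The HBE1 row ENSDARG00000045143 was called, at -1.44 (adjusted p = 0.01206), and without T16 this was -0.50 (adjusted p = 0.2809).

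For the other interactions no member was called by edgeR. The 96 minus 36 hpf difference had 0% of all genes called both for 1.3 µM sorafenib and for 25 nM rotenone. The 48 minus 36 hpf differences had 0.00412% of genes called for 1.3 µM sorafenib, 0.0165% for 2.4 µM sorafenib and 0% for either rotenone dose. For 2.4 µM sorafenib 3 members had an unadjusted p under 0.05 in that difference, beside 2239 of 24246 genes tested. DESeq2 called 1 of these members, hbae1.3, and the 36 hpf pools of this difference include T16. Without T16 hbae1.3 went from -2.33 to -1.38 (adjusted p = 0.2188), hbae3 from -1.46 to -0.57, hbae1.1 from -1.21 to -0.33 and the HBE1 row ENSDARG00000045143, also called by DESeq2, from -1.63 to -0.68. In 50 nM rotenone 1 member had an unadjusted p under 0.05, beside 1985 of 24246 genes tested. No member was called there by DESeq2, and the 36 hpf pools of that difference include T37. The late minus early difference at 96 hpf had 8.03% of genes called for 2.4 µM sorafenib and 0% for 25 nM rotenone. For sorafenib the early change of hbbe3 that enters this difference was 2.92, and it was 0.10 without the pool T1. The lack of a call for hbbe3 thus does not show that the early and late effects were alike. All comparisons of one age and start share their DMSO pools.

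Ordered by the median level, hbbe3 ran from 891 CPM in 25 nM rotenone pools of 36 hpf down to 558 CPM in 2.4 µM sorafenib pools of 48 hpf through the 10 groups of 36 and 48 hpf, each overlapping with its neighbour. Then came 50 nM rotenone at 96 hpf with 13.1 CPM and 2.4 µM sorafenib of the late scenario with 3.19 CPM, which overlapped with neither neighbour. The last 6 groups, from 1.3 µM sorafenib (0.367 CPM) to early DMSO (0.145 CPM), overlapped again, so 14 of the 17 neighbouring pairs did. For the other members 16 (hbae1.1), 16 (hbae1.3), 14 (hbae3) and 15 (hbae5) of the 17 pairs overlapped. The contrast of 50 nM rotenone at 96 hpf selected hbbe3, so the place of that group is no result. Overlaps of neighbouring groups were not counted over all genes, so these counts are a description and show nothing particular to a member.

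The genes whose group means followed hbbe3 most closely were zgc:174855 (Pearson r = 0.991), si:dkey-269i1.4 (0.99), zgc:174154 (0.989), zgc:174153 (0.989) and ctslb.4 (0.989). The correlation was taken over the 18 group means of log2(CPM + 0.1) and is a description, since the groups share ages, and 96 hpf is low in all of these genes. The sum of the 5 members was followed most closely by the HBE1 row ENSDARG00000087390 (0.993), hbae1.2 (0.993), the HBE1 row ENSDARG00000115405 (0.989), tp53inp2 (0.988) and znf384b (0.988).

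As a description, hbbe3 at 96 hpf was set beside 13 other genes that are low at that age. They had at least 10 CPM in DMSO at 48 hpf and a level at least 100-fold lower in early DMSO at 96 hpf. These genes were chosen after the values were seen and were not tested. They include he1.1 and he1.2, which encode hatching enzymes, and ctslb, a cathepsin gene. With 50 nM rotenone hbbe3 was 33.4 times its late DMSO level at 96 hpf, and the other 13 genes were 1.56 to 6.56 times theirs, with a median of 3.65. With 2.4 µM sorafenib hbbe3 was 7.1 times its DMSO level and the others 1.69 to 5.45 times, with a median of 2.1. By group mean, all 13 genes were thus higher than in DMSO in both groups, each by less than hbbe3. With rotenone the place of hbbe3 is no result, since that contrast selected it. The DMSO mean rested on the pool T76. Without T76, a choice made after seeing the data, the rotenone ratios were 55.2 for hbbe3 and 1.95 to 24.6 for the others (median 9.57). The sorafenib ratios were then 11.7 for hbbe3 and 2.53 to 20.5 for the others (median 4.99), so hbbe3 no longer had the highest ratio with sorafenib. Several of the other genes were near the floor in late DMSO at 96 hpf, such as si:dkey-239j18.2 at 0.0259 CPM and si:dkey-269i1.4 at 0.0716 CPM. In T77 and T78 the lowest of them had a level of 0. Ratios of such genes, and any order built on them, rest on very few counts.

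Single pools show the same genes on another scale, as a percent of the level in DMSO at 48 hpf. In the 50 nM rotenone pools hbbe3 stood at 3.87, 1.77 and 0.733% and the median of the 13 other genes at 1.78, 2.08 and 0.309%. In the 2.4 µM sorafenib pools hbbe3 stood at 0.388, 0.43 and 0.537% and the others at 0.461, 0.912 and 0.978%. The early sorafenib pool T1 had 0.564% of hbbe3 and a median of 0.324% for the others. In the late DMSO pools hbbe3 stood at 0.114% in T76 and at 0.0381 and 0.0389% in the other pools, and the other genes stood at 0.751, 0.137 and 0.178%. The median of the other genes in T76 (0.751%) lay above that in the rotenone pool T89 (0.309%) and the sorafenib pool T66 (0.461%). For these genes the single pools of DMSO and of both treated groups thus overlapped. The part of the stage of the embryos in the hbbe3 levels was not tested.

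**Figure D4:**
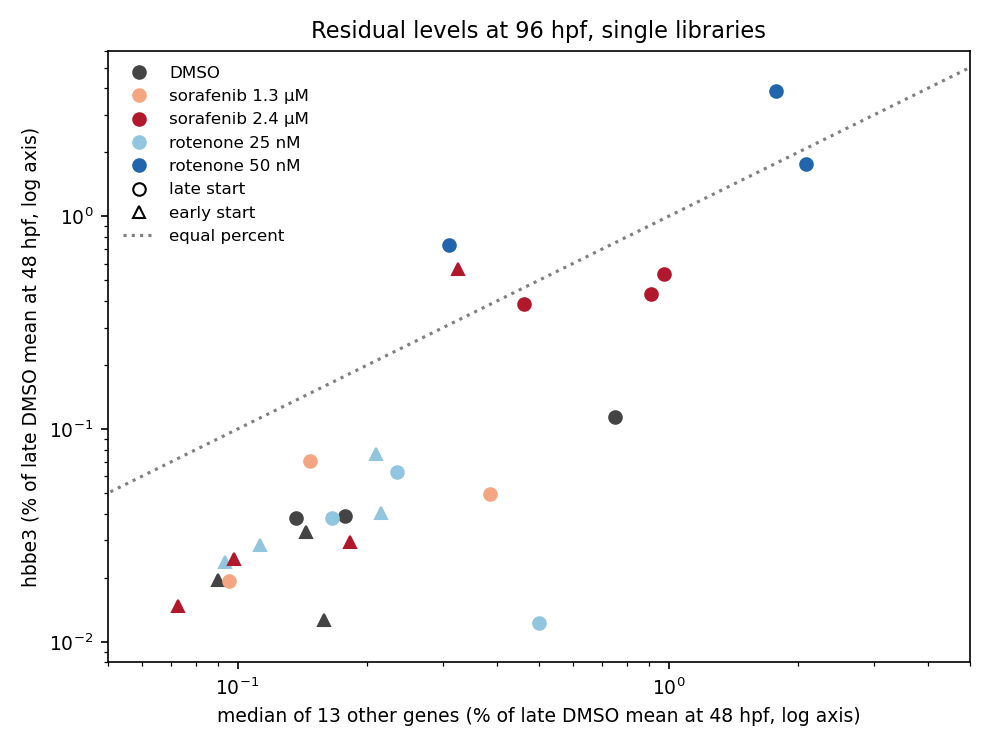
Level of hbbe3 against the median of the 13 other genes in each library of 96 hpf, both as a percent of their mean in DMSO pools of 48 hpf on log axes, where each point is 1 library. The pools of 50 nM rotenone lie highest on the hbbe3 axis at 0.733 to 3.87%, and those of late 2.4 µM sorafenib at 0.388 to 0.537%.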

How the data were processed

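Per the labels and the methods of the study, the authors made stranded libraries, aligned the reads with HISAT2 (2.1.0) to GRCz11, removed reads of low mapping quality and counted reads per Ensembl gene with featureCounts (2.0.3), and the strand setting of the counting is not given in the sources used here. The deposited table holds raw counts of 57 libraries, and every column of it belongs to a sample (0 did not). Symbols came from a table of Ensembl names, and for spi1b and aqp8a.1 from the names in a supplementary table of the study, and were matched without regard to case. As in the study, T14 (DMSO of the early scenario, 96 hpf) and T51 (DMSO, 48 hpf) were omitted, which left 55 libraries of 20609990 to 86897183 counts. A low total widens the error of low counts such as those of hbbe3 at 96 hpf.

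In R (4.3.3), edgeR (4.0.16) filtered low counts (filterByExpr, 24246 of 32520 genes kept), scaled the libraries by TMM and fitted all 18 groups in 1 quasi-likelihood model. P-values were adjusted by Benjamini and Hochberg over all genes tested, and a gene was called at an adjusted p of 0.05. The SE is the size of the log2 fold change divided by the square root of the F statistic. Alternatives were DESeq2 (1.42.0), RLE factors, library totals, TMM without globins, no filter or a mean count minimum of 10, models of the compared groups alone, T51 added back, T16, T37 and T49 left out together, and each library left out in turn. The edgeR fit was also run for a single contrast on simulated counts, with the same dispersion for every gene and no library like T16. That run does not bear on calls that rest on such libraries.

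Members and gene lists were chosen with earlier results of these data known. Named genes were all members, up to 4 called genes per list and comparison by lowest p, or up to 2 with the highest mean CPM where none was called, from which examples are given, and the 5 genes most like hbbe3 and most like the sum of members. The lists were other globins, heme synthesis and iron supply, red cell membrane and metabolism, erythroid regulators, white blood cells and thrombocytes, and endothelium.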

Additional observations from a re-analysis of the deposited data

Results flagged for a closer look

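Of 18 member and HBE1 values in groups of 4 libraries checked for a library far from the others, 3 stood out, where chance gives about 1 in 20. The values come from the same libraries and are not independent, so these counts cannot show an excess. In early sorafenib at 96 hpf the highest hbbe3 library (T1, 4.18 CPM beside 0.11 to 0.22 CPM) left a gap of 0.973 of the group's whole range. In the same group the lowest hbae1.1 library (29.4 CPM beside 34.5 to 35.2 CPM) left a gap of 0.877 of the range. In early rotenone the highest hbae5 library (1.15 CPM, 27 counts) left a gap of 0.844 of the range.

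The effect of 2.4 µM sorafenib on the HBE1 row ENSDARG00000045143 differed between 96 and 36 hpf by -1.44 on the log2 scale in edgeR (adjusted p = 0.01206). Without the library T16 of 36 hpf the difference was -0.50 (adjusted p = 0.2809).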

How the results depend on the processing

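No direction of a called member was reversed in any alternative. The number of members called kept within 1.5 times its value in 207 of 213 comparisons of other settings and in 214 of 228 with a library left out. For 2.4 µM sorafenib at 36 hpf it was 2, and it was 0 without T16, T37 and T49, 0 in a fit of these groups only, and 0 to 4 with 1 library left out, 0 without T16, T28, T29 or T30. In fits of the compared groups only it went from 0 to 1 for 2.4 µM sorafenib at 48 hpf and from 1 to 3 at 96 hpf. For the 48 minus 36 hpf difference of that dose it was 0, and 1 with DESeq2 and 0 to 2 with 1 library left out. For the 96 minus 36 hpf difference it was 0, and 1 without T16, T37 and T49 and 0 to 2 with 1 library left out. With 1 library left out it ranged from 0 to 1 for 50 nM rotenone at 36 hpf and from 0 to 3 between the sorafenib doses at 36 hpf, where no member was called with all libraries. Where a DMSO library of 48 hpf was left out, the lone other one was assumed to vary like the rest.

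No paired analysis was possible because each library has a tube number of its own and the groups share none. Depth limits hbbe3 at 96 hpf, where DMSO pools held 3 to 43 counts.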
